A study of Homo sapiens with 6 samples.

Results

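The genes described here encode the subunits of heterotrimeric G proteins. They were chosen by symbol alone: the alpha genes (GNAS, GNAL, GNAI1 to GNAI3, GNAO1, GNAZ, GNAT1 to GNAT3, GNAQ, GNA11 to GNA15), the beta genes (GNB1 to GNB5), the beta-like gene GNB1L and the gamma genes (GNG and GNGT symbols). RefSeq names 35 such genes, of which 30 had a row among the 16571 genes of the count table and 5 (GNAT1, GNG2, GNG14, GNGT1 and GNGT2) were not analysed here. The family came into view because the counts of one member, GNG11, were much lower after the knockdown, so GNG11 is described below without a test. The counts came from RNA-seq of A2780, an established human ovarian cancer cell line. All cells were infected with lentivirus. The 3 libraries of the control group carried pGIPZ-NC, the control version of the hairpin vector, and the 3 libraries of the other group carried shUSP39, a hairpin against the spliceosome protein USP39. Per the study's methods such stable lines were selected with puromycin. Which hairpin was used is not given in the labels, and no value of USP39 was analysed here, which leaves the labels without a check by the targeted gene.

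A heterotrimeric G protein carries signals from a receptor in the plasma membrane into the cell. The receptor makes the alpha subunit exchange GDP for GTP, after which alpha and the tightly bound beta-gamma pair act on separate effectors, and RGS proteins end the signal by speeding the hydrolysis of GTP. The class of the alpha subunit sets the effector: Gs and Golf stimulate adenylyl cyclase, Gi proteins inhibit it, Gq and G11 activate phospholipase C beta, and G12 and G13 act on a class of guanine nucleotide exchange factors. A gamma subunit is anchored in the membrane by a lipid on a cysteine close to its C-terminus.

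The coding ends of the 4 gamma genes with the highest counts in the control libraries are shown because the lipid is attached there and because GNG11, the member that stood out, differs from the others at this place. Each sequence holds the last 15 bases of the coding region, the stop codon included, read 5′ to 3′ on the coding strand from GRCh37, the build also called hg19. Capitals mark the codon of the cysteine. They lie in the last coding exon, at chr7:93555514-93555528 (plus strand) for GNG11, chr1:68171134-68171148 (minus strand) for GNG12, chr1:84967528-84967542 (minus strand) for GNG5 and chr9:114429206-114429220 (plus strand) for GNG10.
GNG11: TGTgttatttcataa
GNG12: TGCatcatcttatag
GNG5: TGTtcctttttgtag
GNG10: TGTgctttactctga
The codon before the stop is tca, for serine, in GNG11. It is tta in GNG12, ttg in GNG5 and ctc in GNG10, which all encode leucine. By general knowledge a final serine directs farnesylation and a final leucine geranylgeranylation, and GNG11 is among the few farnesylated gamma subunits.

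The total count was between 28294819 and 32939264 per library, and the G protein subunit genes took between 0.2445% and 0.2571% of it. A count was found for 28 to 30 of the 30 genes in each library. Levels are given as CPM, counts scaled to a common library size with TMM factors, and differences as log2 fold change of shUSP39 over pGIPZ-NC with its SE. Genes were called past the test at an adjusted p under 0.05 in edgeR's quasi-likelihood test, after Benjamini-Hochberg adjustment over the 10695 genes that passed the filter on low counts. The study treats the 3 libraries of a group as independent biological samples, and p-values measure the spread between them. Whether they came from separate infections is not given, so the p-values may not cover differences between infections or hairpins. In shUSP39 replicates 2 and 3 a count was found for 15446 and 14890 genes of the table, against 12662 to 12819 in the other 4 libraries, and counts of members were therefore also taken without these 2 libraries.

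Small changes in both directions were found across the family, and changes beyond 2-fold in GNG12 and GNAT3, both lower in shUSP39. Of the 30 genes, 25 passed the filter on low counts. GNG11 passed it only through the pGIPZ-NC libraries and had put the family in view, so it is left out of the counts that follow. Of the other 24 members, 5 rose at an adjusted p under 0.05 (GNAI1, GNB1L, GNB2, GNB5 and GNG13), 8 fell (GNAQ, GNAS, GNAL, GNAT3, GNB4, GNG5, GNG10 and GNG12) and 11 did not pass. This was 54.2% of them, where 33.6% of all tested genes passed (16.1% higher and 17.5% lower). The split between rises and falls moved with the scaling, to 6 and 5 under upper-quartile scaling and to 6 and 6 with library size only. Past the same edgeR test and beyond 2-fold, 0 members were higher and 2 (8.33%) were lower, beside 4.53% and 2.28% of all tested genes, or 6.81% in either direction. The count of 0 was the same in limma-voom and in the DESeq2 Wald test, no member reached 2-fold higher at an unadjusted p under 0.05, and the highest log2 fold change of a member was 0.82 (GNB3). It was 1 without pGIPZ-NC replicate 2 (GNG13) or replicate 3 (GNAT2), and 3 with a limit of 1.5-fold. In 13 of the 24 genes the libraries of the groups did not overlap, beside 44.2% of all tested genes. The median log2 fold change of the 24 was 0.0055, beside 0.0085 over all genes. Members with many counts, such as GNG5 and GNAQ, passed at small fold changes. Without pGIPZ-NC replicate 1 the number that rose was 2, and without shUSP39 replicate 2 it was 3. With shUSP39 replicate 1 as the only library of its group, 2 rose and 4 fell. The spread then comes from the pGIPZ-NC libraries, and the lone library is assumed to vary as they do, here and wherever this setting is named.

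**Figure D1:**
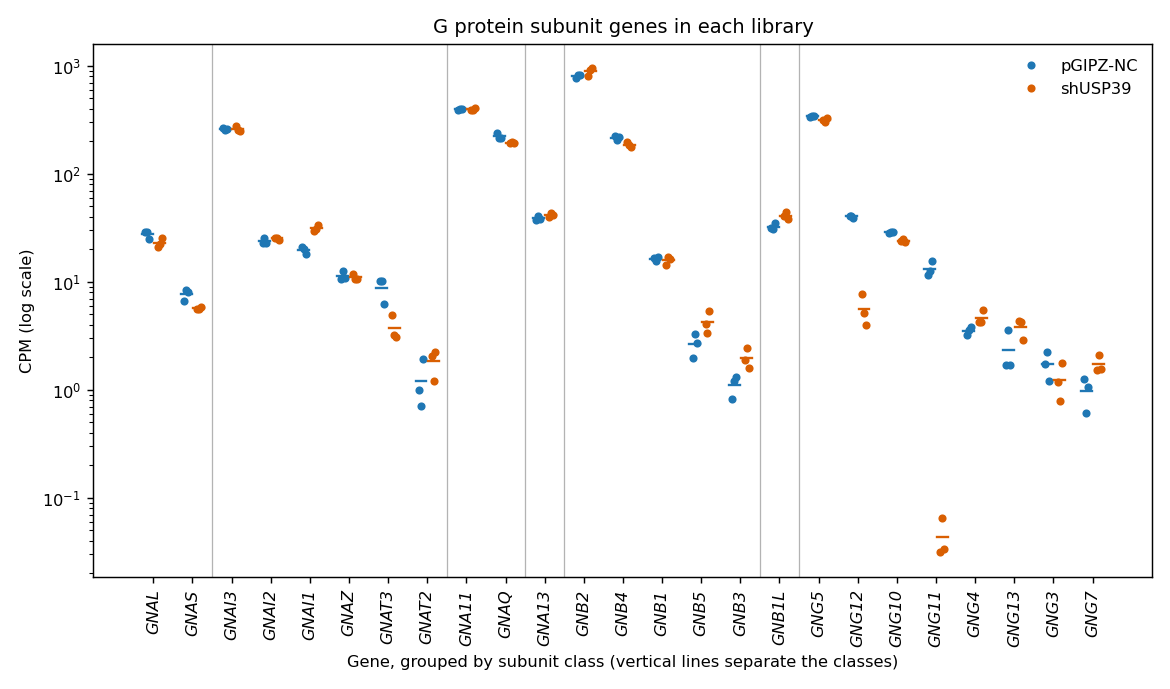
CPM on a log axis for the 25 tested G protein subunit genes in each of the 6 libraries, grouped by subunit class (vertical lines), with points for libraries and short bars for group means. GNG11 and GNG12 are the genes whose shUSP39 points lie farthest below the pGIPZ-NC points, while GNA11, GNAI3 and GNB1 overlap.

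Of 13 gamma genes 9 had a row. Besides GNG11 7 were tested, of which 1 rose, 3 fell and 3 did not pass. These 57.1% stood beside 33.6% of all tested genes, and the median log2 fold change of the 7 was -0.12.

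GNG11 (chr7:93551047-93557922, plus strand, 2 exons) encodes the farnesylated gamma 11. It had 366, 405 and 436 counts in pGIPZ-NC replicates 1, 2 and 3, and 1, 2 and 1 counts in shUSP39 replicates 1, 2 and 3. As CPM these were 11.5, 12.5 and 15.4 against 0.0312, 0.0653 and 0.0338, with means of 13.1 ± 2.06 and 0.0435 ± 0.0190 (SD, n = 3 each). Every shUSP39 library was near the lower limit of detection, and the groups did not overlap. The summed counts, 1207 against 4, gave a 300.4-fold ratio with an exact 95% interval from 117 to 1104, which covers counting error only. These values put the family under study, so no test is attached to them. In bulk RNA, fewer cells with the transcript and less of it in every cell cannot be told apart.

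GNG12 (chr1:68167158-68299150, minus strand) encodes gamma 12, a widely expressed subunit. It had 1305, 1335 and 1103 counts in the pGIPZ-NC libraries and 248, 156 and 118 in the shUSP39 libraries, or 40.9, 41.1 and 39.1 CPM against 7.75, 5.10 and 3.99 CPM. Among the shUSP39 libraries replicate 1 was the highest, still far under all controls. The log2 fold change was -2.84 (SE 0.15, adjusted p = 1.02e-10), a 7.16-fold lower level, and it lay between -3.15 and -2.65 when any one library was left out. With shUSP39 replicate 1 alone in its group it was -2.38. GNG12 overlaps an antisense gene in the annotation, and use of strand in the counting is not stated.

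GNG5 and GNG10 fell by much less. GNG5, the gamma gene with the highest level, had 338, 343 and 347 CPM in pGIPZ-NC and 312, 303 and 331 CPM in shUSP39. The groups did not overlap, yet the log2 fold change was only -0.12 (SE 0.04, adjusted p = 0.0164), and it no longer passed the test under upper-quartile scaling (adjusted p = 0.134), with library size only, or without pGIPZ-NC replicate 2 or 3 or shUSP39 replicate 2. GNG10 had 28.2, 28.7 and 29.1 CPM against 23.8, 24.7 and 23.2 CPM. Its groups did not overlap either, and its log2 fold change was -0.26 (SE 0.08, adjusted p = 0.0143), a call lost without shUSP39 replicate 3 (adjusted p = 0.0557). GNG10 shares exons with a read-through transcript of DNAJC25, and GNG5 and GNG10 have processed copies elsewhere in the genome, so the counting could have split their reads.

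The other gamma genes were low. GNG13, best known from taste cells and the retina, had 1.69, 3.60 and 1.70 CPM in pGIPZ-NC and 4.37, 4.28 and 2.87 CPM in shUSP39. These ranges overlapped, and its rise (log2 fold change 0.71, SE 0.27, adjusted p = 0.0438) was lost without any one of pGIPZ-NC replicates 1 and 3 and shUSP39 replicates 1 and 2, and in the DESeq2 Wald test (adjusted p = 0.0610). GNG4 had 3.20, 3.60 and 3.79 CPM against 4.25, 4.25 and 5.44 CPM, without overlap, and did not pass (log2 fold change 0.40, SE 0.20, adjusted p = 0.129). GNG7, a partner of Golf in the striatum, had 1.25, 0.616 and 1.06 CPM against 1.53, 2.09 and 1.56 CPM and did not pass either (adjusted p = 0.0814). GNG3, a neuronal subunit, had 1.73, 2.25 and 1.20 CPM against 1.19, 0.784 and 1.76 CPM, which overlapped. GNG8 had at most 3 counts in a library and was not tested.

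Levels of different genes were compared per kilobase of the MANE Select transcript, the reference transcript of a gene. In pGIPZ-NC, GNG5 stood at 425 CPM per kilobase, GNG10 at 23.9, GNG12 at 9.18, GNG11 at 4.35, GNG13 at 2.37 and GNG3 at 2.00. Among the gamma genes with a row, GNG5 therefore made up 90.9% of the summed level in pGIPZ-NC and 93.3% in shUSP39. The levels of GNG4 and GNG10 in this sum may be understated, as described below. The share of GNG12 was 1.96% and 0.306%, and that of GNG11 was 0.929% and 0.00347%. The summed gamma level was 468 ± 5.81 CPM per kilobase in the control libraries and 419 ± 16.8 in shUSP39 (SD, n = 3), and without GNG11 it was 463 ± 5.25 and 419 ± 16.8. Which gene made most of the difference depended on the scale. Per kilobase GNG5 went from 425 to 391, more than GNG12 and GNG11 together, whereas as CPM without length GNG12 (40.4 to 5.61 CPM) moved more than GNG5 (343 to 316 CPM). A sum over members chosen with results known was given no test.

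**Figure D2:**
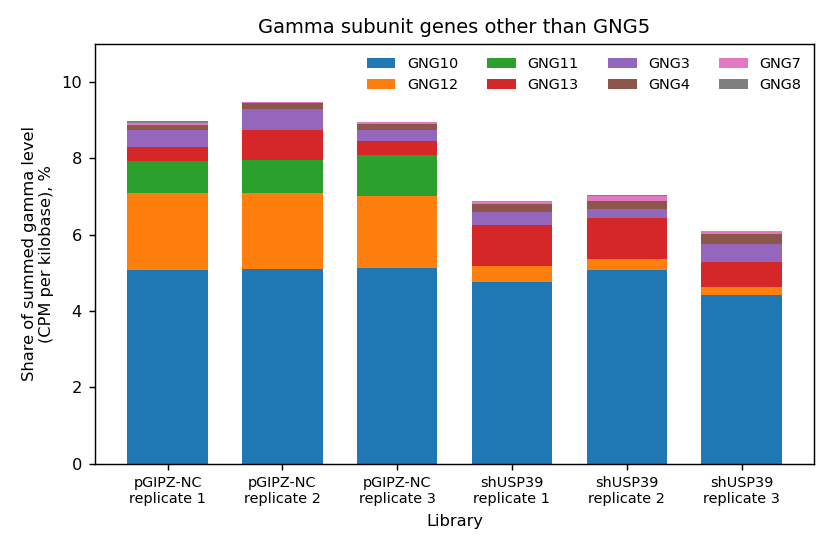
Share of the summed gamma level (percent, from CPM per kilobase) held by each gamma gene other than GNG5 in the 6 libraries, as stacked bars. GNG12 and GNG11 are visible in all 3 pGIPZ-NC bars, while in the shUSP39 bars the mean share was 0.306% for GNG12 and 0.00347% for GNG11.

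Of 16 alpha genes 15 had a row and 11 were tested, of which 1 rose, 4 fell and 6 did not pass. The 45.5% that passed stood beside 33.6% of all tested genes. GNAI1, an inhibitory alpha subunit, had 21.1, 20.1 and 18.3 CPM in pGIPZ-NC and 29.7, 31.1 and 33.4 CPM in shUSP39. All shUSP39 libraries were higher than all controls. The rise was 1.58-fold (log2 fold change 0.66, SE 0.09, adjusted p = 9.83e-07) and passed in every alternative analysis. Its 2 relatives that are more abundant per length did not pass: GNAI3 had 267, 253 and 260 CPM against 279, 257 and 252 CPM (adjusted p = 0.834), and GNAI2 had 23.1, 25.2 and 22.8 CPM against 25.4, 25.7 and 24.5 CPM (adjusted p = 0.466). Both sets of ranges overlapped.

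GNAT3 (chr7:80087951-80141380, minus strand) encodes gustducin, the alpha subunit of taste receptor cells. It had 10.1, 10.1 and 6.23 CPM in pGIPZ-NC and 4.94, 3.20 and 3.08 CPM in shUSP39. The groups did not overlap, although pGIPZ-NC replicate 3 was closer to the shUSP39 libraries than to its own group. The log2 fold change was -1.24 (SE 0.20, adjusted p = 2.34e-05), and with shUSP39 replicate 1 alone in its group it was -0.84, within 2-fold. GNAT3 lies inside the span of CD36 (chr7:79998891-80308593), a fatty acid receptor gene annotated on the opposite strand and looked at after the values of GNAT3 were seen. CD36 had 175, 143 and 140 counts against 65, 67 and 77 counts, and its log2 fold change was -1.12 (SE 0.21). Use of strand is not stated and overlap of their exons was not examined, so reads of the 2 genes may not have been kept apart.

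The remaining Gi-class genes did not pass. GNAZ, an alpha subunit of neurons and platelets, had 10.6, 12.7 and 10.8 CPM against 11.8, 10.7 and 10.6 CPM. GNAT2, the transducin of cones, had 1.00, 0.708 and 1.95 CPM against 2.06, 1.21 and 2.27 CPM. Their log2 fold changes were -0.04 (SE 0.12) and 0.61 (SE 0.37), and the ranges overlapped in both. GNAO1 had at most 5 counts in a library.

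In the Gq class GNAQ fell slightly and GNA11 did not pass. GNAQ had 239, 217 and 215 CPM in pGIPZ-NC and 194, 196 and 194 CPM in shUSP39, without overlap. Its log2 fold change was -0.20 (SE 0.04, adjusted p = 0.000824), and it passed in every alternative analysis. The highest measured alpha level per length was that of GNA11, at 94.7 CPM per kilobase in pGIPZ-NC, although the levels of GNAS and GNA12 may be understated, as described below. GNA11 had 392, 401 and 398 CPM against 390.1, 393 and 405 CPM. Its log2 fold change was -0.00 (SE 0.03, adjusted p = 0.957), and its sign turned with the scaling. GNA14 and GNA15 had at most 3 and 12 counts in a library.

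GNAS and GNAL, the genes of Gs and Golf, fell a little. GNAS had 6.65, 8.47 and 8.11 CPM in pGIPZ-NC and 5.66, 5.65 and 5.85 CPM in shUSP39. GNAL had 28.6, 28.8 and 24.9 CPM against 21.0, 22.2 and 25.5 CPM. The libraries of the groups did not overlap for GNAS and did for GNAL. Their log2 fold changes were -0.44 (SE 0.16) and -0.26 (SE 0.09), with an adjusted p of 0.0307 in both. Both calls were lost under upper-quartile scaling (adjusted p = 0.0545 for GNAS and 0.0723 for GNAL) and without any one of 5 libraries for GNAS (pGIPZ-NC replicates 2 and 3 and each shUSP39 replicate) and of 4 for GNAL (replicates 1 and 2 of both groups).

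The table is per transcript, and GNAS shows what that does to levels. It had rows for 6 of its 18 RefSeq messenger RNAs, with 119, 138 and 148 counts in its leading row in pGIPZ-NC, which is low for a gene that nearly every cell uses. Reads shared by several transcripts may be missing from the counts, and then the level of GNAS is understated. The same holds for GNB1, GNB5, GNG4 and GNAT2 (1 row of 3 messenger RNAs each), GNAI2 (4 of 6) and GNAL (3 of 5). It also holds for GNA12 (2 of 4) and for GNB3 and GNG10 (1 of 2 each). Transcript usage, the split of counts among a gene's transcripts, could be tested in GNAS, GNAI2 and GNAL, and none passed (adjusted p = 0.656, 0.858 and 0.996 by edgeR's diffSpliceDGE), where 3.69% of all genes tested did. None of them had an unadjusted p under 0.05. Only 2 transcripts of each gene entered the test, and changes in the others were not covered. The lesser of the 2 held 2.45% of the counts of GNAL and 4.73% of those of GNAI2, so a shift there could be missed.

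In the G12 class, GNA13 had 37.2, 40.5 and 38.3 CPM in pGIPZ-NC and 39.9, 43.4 and 41.8 CPM in shUSP39. The ranges overlapped, and the log2 fold change of 0.11 (SE 0.07) did not pass. GNA12 had at most 11 counts in a library, and its level may be understated, as described above.

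Of the 5 beta genes, 2 rose, 1 fell and 2 did not pass, or 60% past the test beside 33.6% of all tested genes. None was beyond 2-fold, where 6.81% of all tested genes were. GNB2 took 92.3% of the summed beta level in pGIPZ-NC and 93.6% in shUSP39, shares too high if reads of GNB1, GNB3 and GNB5 are missing. GNB2 had 774, 826 and 826 CPM against 812, 911 and 950 CPM. The ranges overlapped, and its rise (log2 fold change 0.14, SE 0.05, adjusted p = 0.0246) no longer passed in limma-voom (adjusted p = 0.103) or without any one of pGIPZ-NC replicate 1 and shUSP39 replicates 2 and 3. With shUSP39 replicate 1 alone in its group the log2 fold change of GNB2 was 0.007. GNB4 had 224, 207 and 217 CPM against 197, 186 and 176 CPM, without overlap. It fell (log2 fold change -0.21, SE 0.05, adjusted p = 0.000532), and with shUSP39 replicate 1 alone in its group the value was -0.13 (adjusted p = 0.137).

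GNB5, a divergent beta subunit that pairs with a class of RGS proteins, had 1.98, 3.29 and 2.73 CPM in pGIPZ-NC and 4.06, 3.33 and 5.34 CPM in shUSP39. The groups were just apart, and its rise (log2 fold change 0.67, SE 0.24, adjusted p = 0.0288) was lost without pGIPZ-NC replicate 1 or 3 or shUSP39 replicate 3. GNB3 had 0.815, 1.20 and 1.31 CPM against 1.87, 2.42 and 1.59 CPM, also apart, and missed the threshold (log2 fold change 0.82, SE 0.33, adjusted p = 0.0550). Its rise passed under upper-quartile scaling (adjusted p = 0.0435), with library size only, under the filter of at least 10 counts, and without shUSP39 replicate 3. GNB1, with 16.5, 15.5 and 17.0 CPM against 14.3, 17.1 and 16.4 CPM, overlapped (log2 fold change -0.04, SE 0.10).

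GNB1L encodes a protein with the repeats of a beta subunit that is not known to form G proteins. It had 31.6, 31.2 and 34.9 CPM in pGIPZ-NC and 40.6, 44.3 and 38.3 CPM in shUSP39. All shUSP39 libraries were above all controls, and the rise (log2 fold change 0.34, SE 0.08, adjusted p = 0.00119) passed in every alternative analysis.

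**Figure D3:**
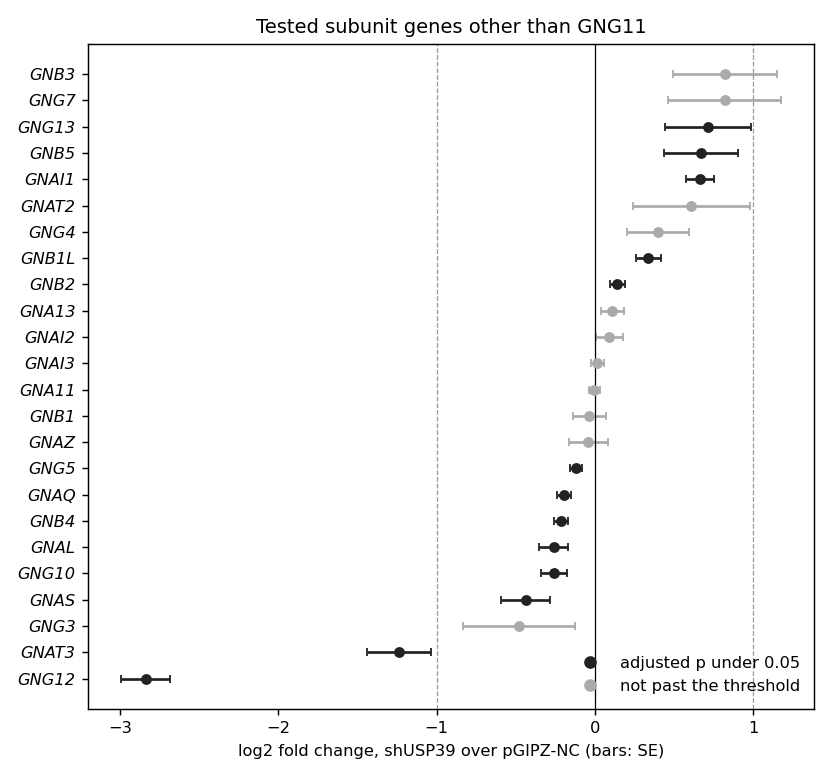
log2 fold change of shUSP39 over pGIPZ-NC for the 24 tested subunit genes other than GNG11, with SE bars and dashed lines at 2-fold; black points passed an adjusted p under 0.05. GNG12 (-2.84) and GNAT3 (-1.24) are the points beyond 2-fold.

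The summed alpha level was 195 ± 3.16 CPM per kilobase in pGIPZ-NC and 188 ± 1.44 in shUSP39. The summed beta level was 526 ± 17.2 and 572 ± 41.5 (SD, n = 3). Within the alpha sum GNA11 had a share of 48.6% in pGIPZ-NC and 50.4% in shUSP39, GNAQ of 16.6% and 15.1%, and GNAI3 of 14.7% and 15.5%. These shares are too high if reads of GNAS, GNAI2, GNAL and GNA12 are missing from the counts.

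The start regions of GNG11 and GNG12, the members with the largest differences, are shown to set them side by side. Each is the 250 bases before the gene's start in RefSeq, build GRCh38.p14, at chr7:93921485-93921734 (plus strand) for GNG11 and chr1:67833468-67833717 (minus strand) for GNG12, read 5′ to 3′. Capitals mark matches to the GC box, GGGCGG, on either strand.
GNG11: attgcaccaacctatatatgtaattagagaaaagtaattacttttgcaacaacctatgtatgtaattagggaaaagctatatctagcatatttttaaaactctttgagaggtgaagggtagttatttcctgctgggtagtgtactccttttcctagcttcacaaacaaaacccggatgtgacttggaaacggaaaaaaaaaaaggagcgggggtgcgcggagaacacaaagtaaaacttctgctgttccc
GNG12: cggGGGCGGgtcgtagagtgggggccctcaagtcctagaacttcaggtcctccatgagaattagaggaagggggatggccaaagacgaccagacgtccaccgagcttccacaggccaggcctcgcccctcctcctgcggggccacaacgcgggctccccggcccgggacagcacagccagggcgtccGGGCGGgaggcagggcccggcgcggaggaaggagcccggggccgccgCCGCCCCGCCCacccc
The region of GNG11 had a GC content of 38.4% and 5 CpG dinucleotides, and that of GNG12 had 73.2% and 23. The medians over 35116 RefSeq promoters were 58% and 11. GNG12 had 4 GC box matches, of which the last pair share a base, and 42.6% of all promoters held at least 1. Neither region held a TATA box (TATAAA, in 10.7% of promoters), CCAAT box (CCAAT, 32%), GATA motif (AGATAA, 9.17%), E-box (CACGTG, 6.34%) or AP-1 motif (TGANTCA, 6.57%), searched on both strands. A match or its absence is a description of letters in this window. Of the 35 members 30 had a promoter in the table.

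The nearest genes around GNG11 with a row did not share its size of change. BET1, a vesicle transport gene 34.2 kb after it, had 9.36 ± 0.543 CPM in the control libraries and 12.7 ± 0.869 in shUSP39 (SD, n = 3) and rose (log2 fold change 0.44, SE 0.12, adjusted p = 0.00564). COL1A2, a chain of type I collagen 466 kb after it, went from 1160 ± 36.1 to 459 ± 11.1 CPM and fell (log2 fold change -1.34, SE 0.03, adjusted p = 2.79e-21). CASD1 fell by 0.38 on the log2 scale, FAM133B rose by 1.40 (SE 0.52) from 0.388 CPM, and RBM48 did not pass (0.07). VPS50, ERVW-1, SGCE and PPP1R9A had at most 15 counts in a library and were not tested. Around GNG12, looked at after its values were seen, GADD45A (13.1 kb away) went from 5.89 ± 0.702 to 11.99 ± 0.574 CPM and rose (log2 fold change 1.02, SE 0.14, adjusted p = 1.44e-06). SERBP1, SLC35D1, MIER1 and DEPDC1 did not pass, with log2 fold changes of 0.04, 0.02, 0.44 and -0.20.

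The other genes of the G protein cycle were examined as lists written from general knowledge, with each count read against the 33.6% of all tested genes that passed. Among RGS proteins, which end the signal of alpha subunits, 2 of 9 tested genes rose, 1 fell and 6 did not pass. The median log2 fold change of the 9 was -0.16, from which no direction is read. It includes RGS1, at 25, 12 and 16 counts in pGIPZ-NC and 2, 4 and 14 in shUSP39, which passed the filter mostly through pGIPZ-NC. RGS3 had 34.2 ± 2.77 CPM in pGIPZ-NC and 66.8 ± 1.39 in shUSP39 (log2 fold change 0.96, SE 0.07), RGS16 had 13.5 ± 1.02 and 20.5 ± 1.56 (0.61, SE 0.10), and RGS2 had 49.4 ± 2.85 and 33.4 ± 2.79 (-0.56, SE 0.08). All 3 act on Gi or Gq proteins, and in each the groups did not overlap.

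Of 11 tested genes for chaperones, exchange modulators, receptor kinases and arrestins, 2 rose, 1 fell and 8 did not pass (median -0.09). The 27.3% that passed stood beside 33.6% of all tested genes. The 11 include ARRB1, which did not pass. It had 26, 18 and 22 counts in pGIPZ-NC and 10, 9 and 12 in shUSP39, so it passed the filter mostly through pGIPZ-NC. Those that passed changed little, with log2 fold changes of 0.33 for GRK5, 0.30 for GRK3 and -0.15 for GRK2. These are receptor kinases, as is GRK6, which did not pass (-0.09, adjusted p = 0.683). Among the 6 genes that attach and process the lipid of gamma subunits 2 fell and the other 4 did not pass (median -0.11). These 33.3% stood beside 17.5% of all tested genes that fell. FNTB, the beta subunit of farnesyltransferase, had 7.63 ± 0.317 CPM in pGIPZ-NC and 4.95 ± 0.757 in shUSP39 (log2 fold change -0.62, SE 0.16, adjusted p = 0.00373), and ICMT, which methylates the prenylated cysteine, had 446 ± 12.5 and 364 ± 7.51 (-0.30, SE 0.04, adjusted p = 2e-07).

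Of 8 tested effector genes 4 fell and the other 4 did not pass (median -0.19). The 50% that fell stood beside 17.5% of all tested genes that fell. ARHGEF11, an exchange factor driven by G12 and G13, fell by 0.54 on the log2 scale (SE 0.15), ADCY9 by 0.35 (SE 0.04), ADCY7 by 0.19 (SE 0.07) and ADCY6 by 0.15 (SE 0.05), the last 3 being adenylyl cyclases. In the cAMP branch, 4 of 8 tested genes other than PDE4B fell and the other 4 did not pass (median -0.23), again 50% beside 17.5%. PDE4B, which degrades cAMP and passed the filter only through pGIPZ-NC, had 63, 61 and 42 counts in pGIPZ-NC and 0, 2 and 0 counts in shUSP39, an 82.6-fold ratio of summed counts with an exact 95% interval from 22.5 to 688 that covers counting error only. PRKAR1A and PRKACA, a regulatory and a catalytic subunit of protein kinase A, fell by 0.65 (SE 0.09) and 0.47 (SE 0.13), and PDE4D fell by 0.44 (SE 0.11).

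Among receptors that couple to G proteins, 5 of 12 tested genes rose, 1 (S1PR3) fell and 6 did not pass, with a median log2 fold change of 0.53. S1PR3 passed the filter mostly through pGIPZ-NC, and the median of the other 11 was 0.54. Of these 11, 45.5% rose, beside 16.1% of all tested genes. The 11 include PTGER4, which did not pass. It had 6, 6 and 13 counts in pGIPZ-NC and 20, 13 and 20 in shUSP39, so it passed the filter mostly through shUSP39. ADORA1, an adenosine receptor coupled to Gi, had 2.83 ± 0.812 CPM in pGIPZ-NC and 5.59 ± 0.838 in shUSP39 (0.98, SE 0.22, adjusted p = 0.000708). ADRB1, a beta-adrenergic receptor coupled to Gs, had 5.20 ± 0.765 and 8.63 ± 1.49 (0.73, SE 0.17, adjusted p = 0.00106), and the oxytocin receptor OXTR had 1.33 ± 0.145 and 2.32 ± 0.833 (0.80, SE 0.31, adjusted p = 0.0461). S1PR3, a receptor for sphingosine-1-phosphate, had 43, 87 and 66 counts in pGIPZ-NC and 13, 11 and 0 in shUSP39.

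**Figure D4:**
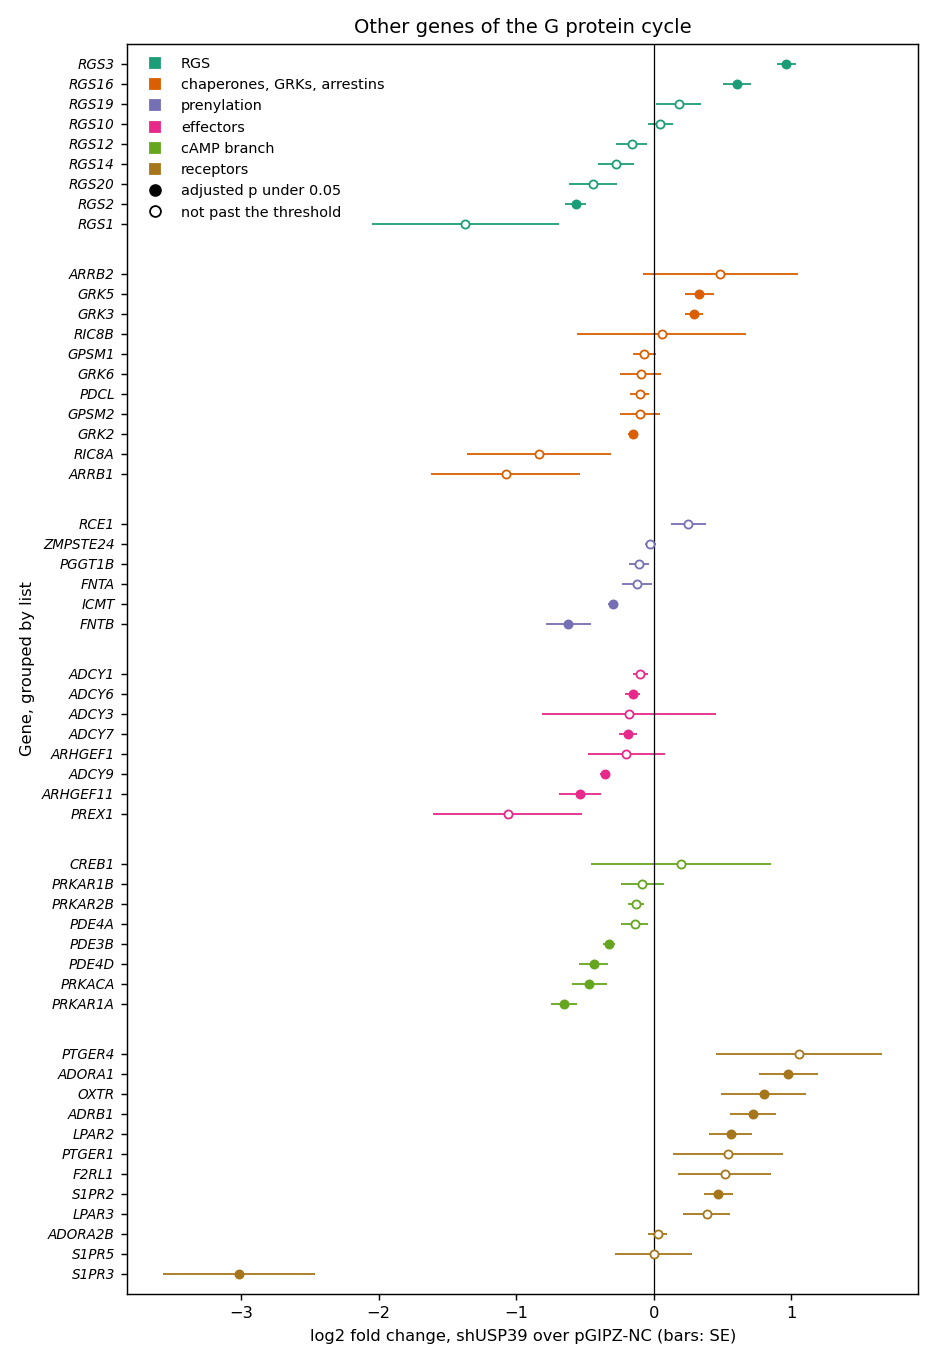
log2 fold change (shUSP39 over pGIPZ-NC, SE bars) of the tested genes of the G protein cycle outside the subunits, by list; filled points passed an adjusted p under 0.05, and PDE4B, with at most 2 counts per shUSP39 library, is left out. In the effector and cAMP lists the filled points lie below 0, and in the receptor list 5 lie above 0 and 1, S1PR3 at -3.02, below. S1PR3 passed the filter on low counts mostly through pGIPZ-NC.

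Markers of cell types are given as a description of the libraries, and which cells their reads came from was not tested. Of 8 epithelial markers 3 were tested. KRT18 rose from 22.4 ± 1.57 to 32.9 ± 3.09 CPM (SD, n = 3), KRT8 went from 28, 37 and 26 counts to 3, 0 and 0, and KRT7 did not pass. KRT8 passed the filter only through pGIPZ-NC. PAX8, EPCAM and CDH1 stayed under 1 CPM in every library, WT1 was not analysed here, and KRT18 was the only marker of the list above 5 CPM. The summed level of the list was 22.2 to 25.4 CPM in pGIPZ-NC and 32.6 to 39.5 CPM in shUSP39. In that sum MUC16 had 5, 1 and 1 counts in pGIPZ-NC and 6, 150 and 71 in shUSP39, high only in shUSP39 replicates 2 and 3. The part of these markers in the changes of members was not tested.

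All 7 markers of endothelial cells and platelets were too low to be tested, and their summed level was 0.390 to 0.439 CPM in pGIPZ-NC and 0.500 to 2.19 CPM in shUSP39. In pGIPZ-NC PF4, PPBP and GP9 had no count, VWF had 10, 9 and 9 counts, PECAM1 had 1, 4 and 1, CDH5 had 3, 0 and 0, and KDR had 0, 0 and 1. VWF was highest in shUSP39 replicates 2 and 3, at 40 and 20 counts. Of 6 leukocyte and fibroblast markers 4 were tested, of which COL1A1 and CD68 did not pass. LUM and DCN, proteoglycan genes of connective tissue, passed the filter through pGIPZ-NC, mostly so for LUM and only so for DCN. LUM had 176, 170 and 97 counts against 16, 3 and 16, and DCN had 31, 22 and 49 against 0, 1 and 6. The summed level of these 6 was 21.1 to 26.1 CPM against 18.0 to 18.6 CPM. The part of these markers and of COL1A2 in the changes of GNG11 and GNG12 was not tested.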

How the data were processed

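RNA-seq was performed on A2780 cells with pGIPZ-NC or shUSP39, and samples were grouped by their titles. The authors deposited read counts per RefSeq messenger RNA in 1 table with 1 column per library. The submitters' processing notes name HISAT2, Cufflinks and hg19 without a role, and the study's methods name HISAT2 for mapping reads to hg19 in the splicing analysis. Whether the table came from those alignments, its counter and use of strand are not given in the sources used here. The deposited group means and the authors' own fold, p-value and q-value columns were not used.

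Counts in 21368 rows were summed to 16571 gene symbols, and 46 symbols turned into dates were restored. All genes with enough counts by filterByExpr entered 1 fit in edgeR 4.0.16 (TMM scaling, robust quasi-likelihood, group as the only term, R 4.3.3). P-values were adjusted after Benjamini and Hochberg, with a threshold of 0.05 and, where stated, a limit of 2-fold. Positions and lengths were those of GENCODE 44 mapped to GRCh37. Promoters were those of RefSeq.

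All members with a row were named, with values in every library at a mean of at least 1 CPM in either group, as were up to 4 genes of each list with the largest change past the test and at least 1 CPM, and 5 neighbours of GNG11 on either side, of which 1 is not reported here. The members and lists were chosen with earlier results of these data known. Alternatives were other scaling and filters, limma-voom (limma 3.58.1), the DESeq2 1.42.0 Wald test, a replicate block, the transcript with the most counts and left-out libraries. The fit was tested on simulated data, with the 2-fold limit applied to the calls. Of 200 genes changed by 2 on the log2 scale among 10369, 99.5% were recovered, with 0 false calls. Smaller changes were not simulated. The changed genes were drawn from those with a pGIPZ-NC mean over 1 CPM. The simulation therefore does not check changes under 2 on the log2 scale, that of GNAT3 (-1.24) among them. Nor does it check the members within 2-fold, which passed on the adjusted p alone. The total count was 28294819 to 32939264 per library.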

Additional observations from a re-analysis of the deposited data

How the results depend on the processing

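GNG12, GNAT3, GNAI1, GNAQ and GNB1L passed the test in every alternative run. Counts of members given here leave out GNG11. Under upper-quartile scaling 6 members rose and 5 fell, and with library size only 6 rose and 6 fell, against 5 and 8 as analysed. With a 1.5-fold limit 3 members were called higher, and 1226 genes of the table were called. Under the filter of at least 10 counts in every library the table had 471 called genes, since genes near 0 in one group, GNG11 among them, were not tested. With shUSP39 replicate 1 as the only library of its group, the log2 fold change was -2.38 for GNG12 and -0.84 for GNAT3. With each library left out in turn, 2 to 5 members rose and 5 to 7 fell. Called higher were 0 to 1 (GNG13 without pGIPZ-NC replicate 2, at 1.17, and GNAT2 without pGIPZ-NC replicate 3, at 1.10). GNG12 and GNAT3 were called lower each time, 677 to 836 genes of the table were called, and transcript usage passed in 0 members. The summed gamma level had a ratio of shUSP39 over pGIPZ-NC of 0.896 per kilobase, 0.823 as CPM without length and 0.905 without GNG11, the last chosen after its values were seen. The sign of the log2 fold change turned in 4 genes near 0. For GNA11 it was 0.0408 under upper-quartile scaling, 0.0220 with library size only, 0.000745 under the filter of at least 10 counts and 0.00221 for the transcript with the most counts, and with each library left out it lay between -0.0193 and 0.00353 (0.00114 without shUSP39 replicate 2). For GNAZ it was 0.00214 under upper-quartile scaling and 0.0566 with shUSP39 replicate 1 alone, and between -0.0990 and 0.0383 with each library left out. For GNB1 it was 0.00875 under upper-quartile scaling and between -0.0879 and 0.0320 with each library left out. For GNAI3 it was between -0.0347 and 0.0440 (-0.0108 without pGIPZ-NC replicate 2). Apart from the settings that remove libraries or genes, the cause of these moves was not tested. The median of all genes moved to 0.0529 under upper-quartile scaling and to 0.122 without a filter.

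Same-numbered libraries did not deviate together (correlations of 0.0688, 0.00477 and 0.0216 over genes), so replicate numbers were not taken as pairs. With the replicate block 5 members other than GNG11 rose, 8 fell and 745 genes of the table were called. At this depth, members under 1 CPM in both groups (GNA12, GNA14, GNA15, GNAO1 and GNG8) could not be compared. The low counts of GNA12 may also reflect missing reads, since it had rows for 2 of its 4 RefSeq messenger RNAs. For GNG3, GNG7, GNB3 and GNAT2 the SE of 0.33 to 0.37 on the log2 scale left changes of that size not detectable.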
